A study of Mus musculus with 4 samples.

Results

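Aquaporins are membrane channels for water and, in some members, for glycerol and other small solutes, and Avpr2 is the receptor through which vasopressin controls one of them in the kidney. The 10 genes described here are Aqp1, Aqp2, Aqp3, Aqp4, Aqp5, Aqp6, Aqp7, Aqp8, Aqp11 and Avpr2, out of 34650 gene names on the array. They were taken by gene name among the non-control spots of the scanner files, and all of their probes were kept: 16 of 55681. 6 genes had 2 probes and 4 had 1, and the probes of a gene are called brighter and dimmer by their mean over the arrays.

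The study asked how gene expression in the kidney differs in membranous nephropathy (MN), a disease in which immune complexes collect beneath the podocytes of the glomerulus. Total RNA from kidneys of female BALB/C mice, 6 weeks old at the start, was labelled with Cy3 and hybridised to 1-colour Agilent arrays, with 2 control and 2 MN arrays. All mice, controls included, received 0.2 mg of cationic bovine serum albumin (cBSA) in complete Freund's adjuvant. From 2 weeks later the MN mice received cBSA into a vein at 13 mg/kg, 3 times a week for 6 weeks, and the controls vehicle on that schedule (saline in the protocol text, PBS in the sample characteristics). The groups thus share the first exposure to the antigen and differ in the later injections. No label ties an array to a mouse of its own, so the p-values cover the spread between arrays, which may be partly technical. Slide 1 carried replicate 1 of both groups and slide 2 replicate 2.

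In the collecting duct, vasopressin binds Avpr2 on the blood side of principal cells. The receptor raises cyclic AMP, protein kinase A phosphorylates Aqp2, and vesicles holding Aqp2 fuse with the membrane on the urine side, so that water enters the cell and leaves it through Aqp3 and Aqp4 on the blood side. Aqp1 carries water in the proximal tubule and the thin descending limb, Aqp7 carries water and glycerol in the straight proximal tubule, Aqp6 sits in vesicles of acid-secreting intercalated cells, and Aqp8 and Aqp11 lie mostly inside cells.

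The probes shown first are those of the genes on which the results turn. They are 60 bases long, are written 5′ to 3′ on the transcript strand, and have positions on mm9, the build of the files. Probes that may lie outside the coding sequence are shown as a stretch of 30 bases (bases 29 to 58 of the brighter Aqp8 probe and 1 to 30 of the others), and the capitals mark AATAAA, the signal for cutting and polyadenylating a transcript.
Aqp2 probe: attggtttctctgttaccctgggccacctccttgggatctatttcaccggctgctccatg
Aqp3 probe: atctggagctatgacccttgactgggggct
Aqp8 brighter probe: atctgactttgtAATAAAtggcttagcatt
Aqp8 dimmer probe: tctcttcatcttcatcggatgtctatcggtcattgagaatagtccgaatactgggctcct
Avpr2 brighter probe: tgtctccctAATAAAagttgcagttcattt
Avpr2 dimmer probe: tctggcaagtactctgcaggtgaggaagac
The Aqp2 probe lies on the plus strand of chr15:99412578-99413554. Its 60 bases are spread over 977 bases of the genome, so it crosses a splice junction. The whole Aqp3 probe lies on the minus strand of chr4:41039962-41040021. The Aqp8 probes lie on the plus strand, the brighter at chr7:130611453-130611512 and the dimmer at chr7:130606210-130606269, and those of Avpr2 are at chrX:71139568-71139627 (brighter) and chrX:71139472-71139531 (dimmer). AATAAA, searched as read on the transcript strand, was in 4 of the 16 probes (25%), those of Aqp1 and the brighter probes of Aqp6, Aqp8 and Avpr2, against 10.1% of all probes on the array.

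Values are log2 levels: log2 of the deposited processed signal minus the 75th percentile of the same array, so that 0 is a probe at that percentile. Levels of different probes are not read as RNA amounts against each other, because each probe binds with its own strength. The summed levels of markers given below carry that strength too, so a few bright probes can lead a sum. Between 63.1% and 79.5% of non-control spots were well above background and 0 were saturated. Raw signals had a median of 3.26 to 5.40 local backgrounds. The 75th percentile was 1204 on MN array 2 and 737 to 818 on the others. Kidney markers were bright on every array: Slc34a1, the phosphate transporter of the proximal tubule, lay at log2 levels of 7.31 to 7.74 and Umod, the uromodulin of the thick ascending limb, at 8.05 to 8.31. Of the member probes, 13 from 9 genes were well above background on both arrays of a group and were tested. The 3 others, both of Aqp5 and the dimmer of Aqp8, were not tested.

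None of the 9 tested genes passed the threshold of an adjusted p under 0.05 (limma with Benjamini-Hochberg adjustment over 36262 probes). By their brighter or only probe, 3 genes had a higher mean in MN and 6 a lower one. Over all probes tested, 0.0193% passed, all of them higher in MN. One member, Aqp8, had an unadjusted p under 0.05, against 6.98% of all probes in either direction and 3.53% lower in MN. The median log2 difference (MN minus control) of the 9 genes was -0.01, beside -0.06 for all probes. In 8 genes the difference was under 0.4 in size, as it was for 82.2% of all probes. The 95% intervals of 7 genes lay within a 2-fold change in either direction, so larger differences of these were outside the intervals. In 3 genes the groups did not overlap, as in 33.5% of all probes: Avpr2 was higher on both MN arrays (12.8% of all probes), and Aqp3 and Aqp8 were lower on both (20.6% of all probes). With 2 arrays against 2, an exact permutation test of 1 gene cannot go below p = 0.333.

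**Figure D1:**
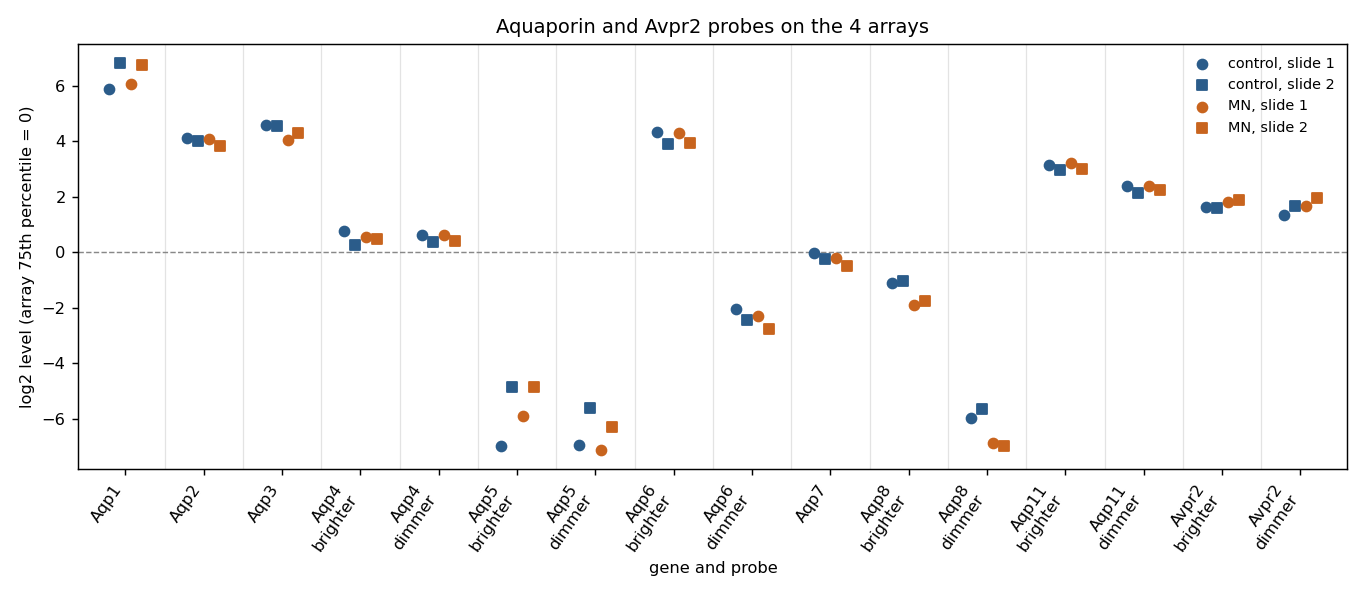
Log2 level (array 75th percentile = 0) of the 16 member probes on the 4 arrays, one column per probe; circles are slide 1, squares slide 2, blue is control and orange MN. The Aqp8 brighter probe and the Aqp3 probe lie lower on both MN arrays and the Avpr2 probes higher; both Aqp5 probes and the dimmer Aqp8 probe lie near background.

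Avpr2, the receptor, was slightly higher on the MN arrays by both probes, and neither difference passed the threshold. Its brighter probe was at 1.63 (array 1) and 1.59 (array 2) in control and at 1.81 and 1.87 in MN, and values are given in this order throughout. The groups were apart, and the arrays of a group differed by less than the groups did. MN minus control was 0.23 ± 0.14 (log2, SE; 1.17-fold, 95% interval 0.893 to 1.53; adjusted p = 0.931 in limma). The dimmer probe, which ends a short way upstream of the brighter one, was at 1.34 and 1.64 in control and 1.66 and 1.96 in MN. Here the lower MN array was only just above the higher control array, and the slides differed about as much as the groups. Its log2 difference was 0.31 ± 0.20 (SE), and within slides 1 and 2 it was 0.31 and 0.31. In whole kidney, fewer cells of a type and less RNA per cell cannot be told apart, which holds for every gene described here.

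Aqp2, the channel that vasopressin moves to the membrane and controls over the longer term through its amount, was at nearly the same level on all arrays. It was at 4.09 and 3.99 in control and at 4.09 and 3.82 in MN. The groups overlapped, with MN array 1 at the level of control array 1 and MN array 2 lowest. The log2 difference was -0.09 ± 0.17 (SE; 0.942-fold, 95% interval 0.679 to 1.31). An Aqp2 difference of 2-fold in either direction was thus outside the interval, while a difference of the size seen was smaller than its error.

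Aqp3, the water and glycerol channel of the blood side of principal cells, was lower on both MN arrays. It was at 4.57 and 4.53 in control and at 4.05 and 4.28 in MN. The control arrays lay close together and both MN arrays lay beneath them. The log2 difference was -0.38 ± 0.16 (SE; 0.768-fold, 95% interval 0.565 to 1.04), with an unadjusted p of 0.0752 and an adjusted p of 0.786 in limma. Within slides 1 and 2 it was -0.51 and -0.25. Before scaling, the processed signals were 17449 and 18859 in control and 12735 and 23344 in MN, so the order of MN array 2 rests on the scaling to its higher 75th percentile.

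Aqp4, the other blood-side water channel of principal cells and the main aquaporin of brain astrocytes, did not separate the groups by either probe. The brighter probe was at 0.75 and 0.27 in control and at 0.53 and 0.47 in MN. Both MN arrays lay between the control arrays. The log2 differences were -0.01 ± 0.22 for the brighter and 0.01 ± 0.19 for the dimmer probe (SE). The probes lie on chromosome 18, and no sequence is shown for this gene.

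**Figure D2:**
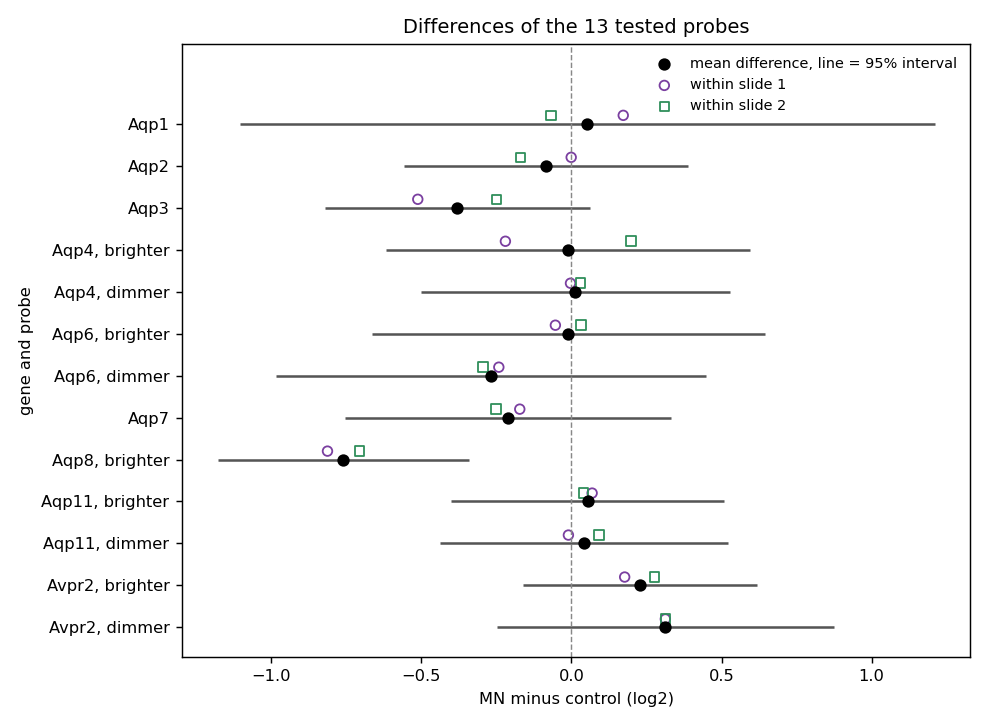
Log2 difference (MN minus control) of the 13 tested member probes; black points are mean differences with 95% intervals from limma, open circles the difference within slide 1 and open squares that within slide 2. The interval of the brighter Aqp8 probe lies below 0, and the other 12 include 0.

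Aqp8 had the largest difference of the 9 tested members, and it did not pass the threshold after adjustment. In other organs Aqp8 is known from the epithelium of the colon, the pancreas, the liver and the testis, and its pore lets ammonia and hydrogen peroxide through as well as water. The brighter probe was at -1.11 and -1.05 in control and at -1.92 and -1.75 in MN. All 4 arrays were well above background, and the gap between the groups was several times the gap between the arrays of a group. The log2 difference was -0.76 ± 0.15 (SE; 0.590-fold, 95% interval 0.442 to 0.789), with an unadjusted p of 0.0071 and an adjusted p of 0.497 in limma. It was -0.81 within slide 1 and -0.71 within slide 2. A difference of -0.7 or lower was seen in 4.08% of all probes, and by its p Aqp8 stood at place 519 of 36262. Before scaling, the signals were 343 and 396 in control and 203 and 357 in MN. MN array 2 then lay between the control arrays. All 4 tested markers of liver and pancreas, other organs with Aqp8, had a higher mean in MN, with a summed linear level of 5.51 and 6.71 in control and 13.9 and 17.9 in MN. Their part in the Aqp8 level was not tested.

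The second Aqp8 probe lies in an earlier stretch of the transcript. Its deposited start, read here as a position in the transcript, is base 290, against base 1421 for the brighter probe. Its levels were -5.98 and -5.66 in control and -6.87 and -6.98 in MN. Control array 2 was the sole array with this probe well above background, so it gives no fold and no test, and whether it moves with the brighter probe cannot be read from it.

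Aqp1, the main water channel of the proximal tubule, spread more between slides than between groups. It was at 5.89 and 6.80 in control and at 6.06 and 6.73 in MN. Both arrays of slide 2 were higher than both of slide 1, and the groups overlapped. MN minus control was 0.05 ± 0.42 (log2, SE). Its 95% interval of -1.11 to 1.21 includes a 2-fold change either way, but it counts the slide shift as error. Within slides 1 and 2 the difference was 0.17 and -0.07. With the replicate number as a block in limma its SE was 0.12. Of the 11 proximal tubule markers, summed as linear levels relative to the 75th percentile, the total was 797 and 1406 in control and 891 and 1192 in MN. Slide 2 was thus higher in this total too. It was led by Kap, an androgen-regulated protein of the proximal tubule, at log2 levels of 7.40 and 9.14 in control and 7.90 and 8.56 in MN. The part of these cells' RNA in the Aqp1 spread was not tested.

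Aqp7, the glycerol channel of the straight proximal tubule and of fat cells, was at -0.03 and -0.26 in control and at -0.20 and -0.52 in MN. The groups overlapped, and slide 2 was lower in each. This gave a log2 difference of -0.21 ± 0.20 (SE; 0.863-fold, 95% interval 0.592 to 1.26). Fat-cell markers were measured beside it, because RNA from fat can enter a kidney sample. Of 7 such markers 5 had a higher mean in MN, and 2 of these, Adipoq and Cfd, passed the threshold. Their median log2 difference was 2.59, that of Cidec, a protein of fat droplets, which was well above background on all arrays. Adipoq, the hormone adiponectin, was well above background on the MN arrays only. It entered the test through those arrays alone, and its call rests on control values that did not clear background. The summed linear level of the 7 was 20.0 and 17.8 in control and 22.6 and 22.3 in MN, most of it from Fabp4, a fatty acid carrier that was at 4.31 and 4.13 in control and at 4.17 and 4.08 in MN. The part of fat-cell RNA in the Aqp7 level was not tested.

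Aqp11, an aquaporin of the endoplasmic reticulum whose loss in mice leads to cystic kidneys, was at 3.12 and 2.96 in control and at 3.19 and 3.00 in MN by its brighter probe. The groups overlapped. This gave a log2 difference of 0.05 ± 0.17 (SE; 95% interval of the fold 0.757 to 1.42), and the dimmer probe gave 0.04 ± 0.17. A 2-fold change lay outside both intervals.

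Aqp6, the anion-conducting aquaporin of intercalated cells, was at 4.33 and 3.90 in control and at 4.27 and 3.93 in MN by its brighter probe. Each slide had nearly the same value in both groups. The log2 difference was -0.01 ± 0.24 (SE). The dimmer probe was at -2.05 and -2.46 in control and at -2.29 and -2.76 in MN, again lower on slide 2, with a difference of -0.27 ± 0.26.

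Aqp5, the water channel of salivary, lacrimal and airway glands, was near background. By its brighter probe it was at -6.97 and -4.87 in control and at -5.90 and -4.87 in MN, and by the dimmer at -6.95 and -5.61 in control and at -7.13 and -6.32 in MN. Each probe was well above background on control array 2 and on no other. That array also had the most spots well above background (79.5%) and the lowest level at which a probe was so called, -6.04 against -5.06 to -4.77 on the others, and the brighter probe was at the same level on MN array 2. Markers of salivary and lacrimal gland, of which 3 were tested and 2 had a higher mean in MN, summed to a linear level of 0.350 and 0.358 in control and 0.466 and 0.455 in MN.

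The spread within a group followed the slide for most members. In 11 of the 13 tested probes (84.6%) slide 2 differed from slide 1 in the same direction in control and in MN, as in 74.0% of all probes tested. The shifts were 0.91 in control and 0.67 in MN for Aqp1, and -0.43 and -0.34 for the brighter Aqp6 probe. For Aqp8 they were 0.06 and 0.16, small beside the difference between the groups. With the replicate number, which is also the slide, as a block in limma, the adjusted p was 0.214 for Aqp8, 0.338 for Aqp3, and 0.435 and 0.333 for the brighter and dimmer Avpr2 probes, and no member passed. In 6 of the 9 genes the MN minus control difference had the same sign on both slides, against 63.2% of all probes.

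**Figure D3:**
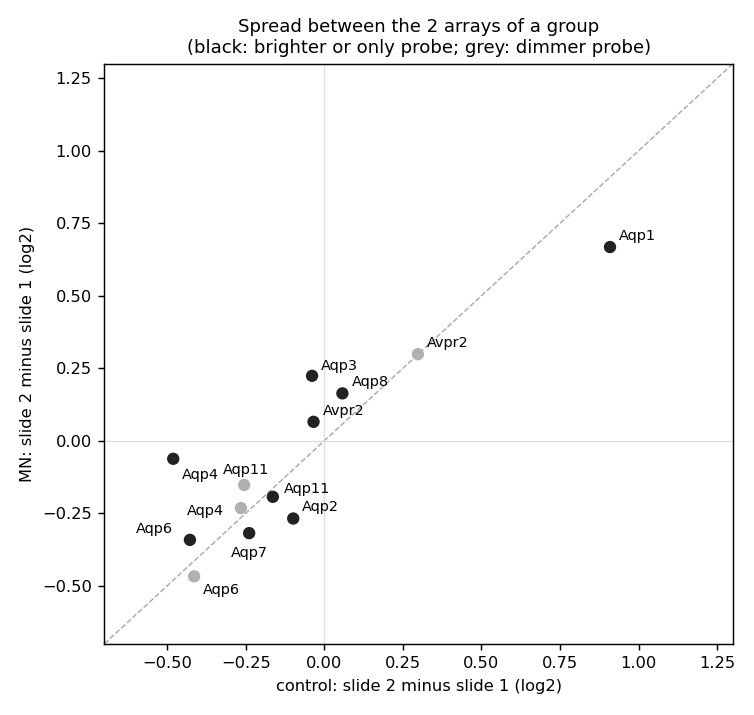
Log2 shift from slide 1 to slide 2 within control (horizontal) and within MN (vertical) for the 13 tested member probes; the dashed line marks equal shifts, black points are brighter or only probes and grey points dimmer ones. Aqp1 has the largest shift, 0.91 in control and 0.67 in MN.

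The genes that act with these members were described through 8 lists, and none of their tested genes passed the threshold in limma. Of the 130 list genes well above background on all arrays, 4 had an unadjusted p under 0.05 (3.08%, against 6.98% of all probes tested): Creb1, Snap23, Sgk1 and Slc14a2. The list of vasopressin signalling (receptors, cyclic AMP and the hormones that oppose it) had 27 tested genes, 11 with a higher mean in MN and 16 with a lower one, at a median log2 difference of -0.09. Adcy6, the adenylyl cyclase that Avpr2 drives, was at 1.75 and 1.80 in control and at 1.63 and 1.95 in MN (difference 0.02 ± 0.18, SE). Creb1, a transcription factor that protein kinase A activates, was at -3.27 and -3.35 in control and at -2.84 and -2.80 in MN by one probe (0.49 ± 0.14; unadjusted p = 0.0266, adjusted p = 0.626 in limma). Its other probe gave 0.01 ± 0.21. Ednrb, the endothelin receptor through which endothelin opposes vasopressin in the collecting duct, had differences of -0.45 ± 0.19 and -0.39 ± 0.18 by its probes, and Akap1, an anchor of protein kinase A, of -0.38 ± 0.14 and -0.23 ± 0.15. On both genes the groups did not overlap.

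Genes that move Aqp2 between vesicles and membrane numbered 27 tested, 9 higher and 18 lower, at a median of -0.05. Snap23, a membrane fusion protein, had the largest difference on these 8 lists by 1 of its probes. That probe was at 1.07 and 1.51 in control and at 2.33 and 2.45 in MN (1.103 ± 0.21; unadjusted p = 0.0062, adjusted p = 0.484 in limma). The other probes of this gene gave -0.04 and -0.04, so the probes of 1 gene disagreed. Ndfip2, an adaptor of ubiquitin ligases, was at -2.73 and -1.47 in control and at -3.40 and -1.74 in MN, with overlap (-0.48 ± 0.74). Rab11fip2, a partner of the recycling regulator Rab11, had a difference of -0.35 ± 0.27.

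Principal cell genes, the cells that hold Aqp2, Aqp3, Aqp4 and Avpr2, numbered 16 tested, 8 in each direction, at a median of -0.00. Sgk1, the aldosterone-induced kinase that keeps the sodium channel ENaC at the membrane, was at 4.57 and 4.62 in control and at 5.08 and 5.14 in MN (0.51 ± 0.14; unadjusted p = 0.0221, adjusted p = 0.609 in limma). Scnn1b, a subunit of that channel, had a difference of 0.03 ± 0.14. Elf5, a transcription factor of principal cells, was lower on both MN arrays (-0.26 ± 0.14). The summed linear level of the 7 principal cell markers was 63.4 and 63.0 in control and 62.2 and 62.5 in MN. This total was led by Fxyd4 and Scnn1a, whose log2 differences of -0.11 and 0.14 went opposite ways. Of the 6 tested markers 3 had a higher mean in MN and 3 a lower one. Aqp2, Aqp3 and Avpr2 had differences of -0.09, -0.38 and 0.23. The part of principal cell RNA in these was not tested.

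Intercalated cell genes, of the cells that hold Aqp6, numbered 17 tested, 6 higher and 11 lower, at a median of -0.01. Foxi1, the transcription factor that defines these cells, was at 3.55 and 3.38 in control and at 3.22 and 3.04 in MN (-0.33 ± 0.16). Slc4a1, their chloride-bicarbonate exchanger that is also abundant in red blood cells, had a difference of -0.28 ± 0.14, and the receptor tyrosine kinase Kit one of -0.25 ± 0.20. Of 5 tested red blood cell markers 4 had a higher mean in MN, while their summed linear level was 139 and 140 in control and 97.2 and 83.3 in MN; their part in the Slc4a1 level was not tested.

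The genes that build and withstand the concentrated medulla numbered 20 tested, 11 higher and 9 lower, at a median of 0.03. Slc14a2, the vasopressin-regulated urea transporter of the collecting duct, was at 1.18 and 0.999 in control and at 1.83 and 1.71 in MN by its brighter probe (0.68 ± 0.16; unadjusted p = 0.0119, adjusted p = 0.536 in limma). Its dimmer probe gave -0.01 ± 0.31. Cldn19, a tight junction protein of the thick ascending limb, had a difference of 0.40 ± 0.16 and Slc6a6, the taurine transporter that helps cells withstand salt, of 0.40 ± 0.18. Nfat5, the transcription factor that responds to salt, had one of -0.08 ± 0.20, Slc12a1, the salt transporter of the thick ascending limb, of 0.04 ± 0.14 and Umod of 0.07 ± 0.17.

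Proximal tubule genes numbered 16 tested, 6 higher and 10 lower, at a median of -0.03. The lower ones include Slc7a13, which has only a bound. The glucose transporter Slc5a2 had a difference of 0.23 ± 0.19 and the bicarbonate transporter Slc4a4 of -0.23 ± 0.20. Slc7a13, an amino acid transporter of the straight proximal tubule, was well above background on the control arrays only. It was at -4.37 and -3.93 there. The mean of these was 1.61-fold that of a bound for MN, the dimmest detected signal of each MN array. The adjusted p was 0.497 in limma, from MN values that did not clear background. With normexp background correction the difference was -0.36, against -1.04 in the main fit. Slc7a13 is named after its value was seen.

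Of the other aquaporins and vasopressin genes, 4 of 8 were tested: 1 had a higher mean in MN and 3 a lower one, at a median of -0.20. These counts and the median include Mip, which has only a bound. Avp, the gene of vasopressin itself, and Aqp9 were each well above background on 1 array and were not tested, and Avpr1b, the pituitary vasopressin receptor, was well above background on none. Avpr1a, the vasopressin receptor of blood vessels, was at -0.75 and -0.59 in control and at -0.94 and -0.95 in MN (-0.27 ± 0.15). The oxytocin receptor Oxtr gave -0.12 ± 0.34 and oxytocin, Oxt, 0.13 ± 0.25. Mip, the aquaporin of the eye lens, was well above background on the control arrays only. Its control mean was 1.11-fold the bound for MN. The difference was -0.50 ± 0.24 (adjusted p = 0.842 in limma), from MN values that did not clear background. Genes of glycerol handling, which share the solute of Aqp3 and Aqp7, numbered 8 tested, 2 higher and 6 lower, at a median of -0.06. Gpam, the first enzyme of glycerolipid synthesis, had a difference of 0.29 ± 0.14, the hormone-sensitive lipase Lipe of -0.26 ± 0.15 and the mitochondrial Gpd2 of -0.17 ± 0.31.

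**Figure D4:**
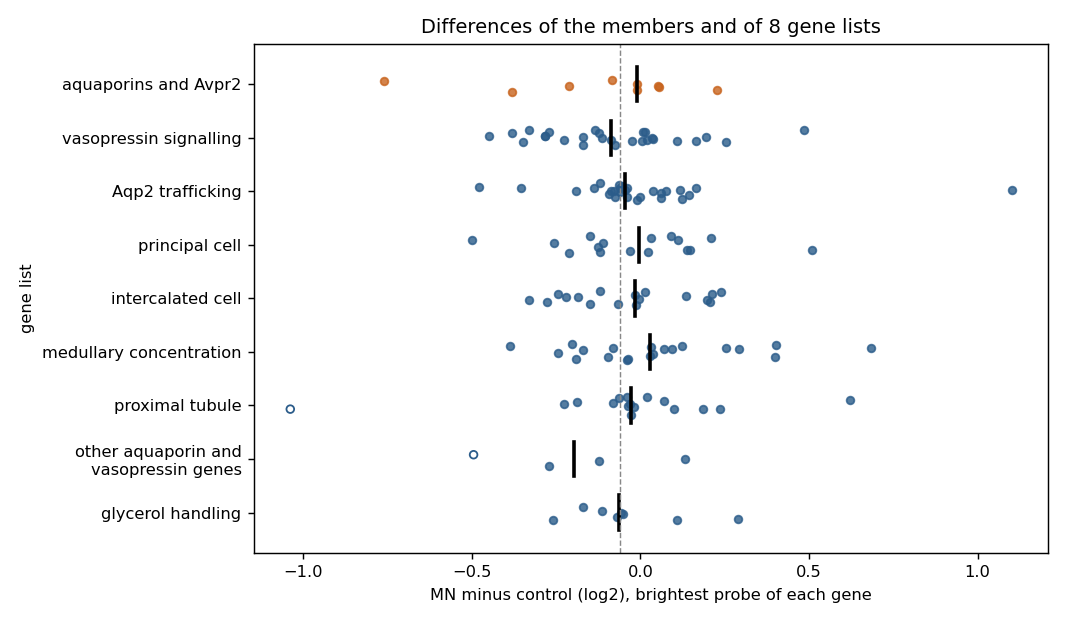
Log2 difference (MN minus control) of each tested gene by its brightest probe, for the members (orange) and for 8 gene lists (blue); open circles are genes well above background on no array of 1 group, vertical bars are medians and the dashed line the median of all probes tested (-0.06). Medians of the lists lie between -0.20 and 0.03, and the point farthest to the right is Snap23 at 1.103. The open circles have only a bound, and the medians count them.

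Profiles over the 4 arrays were compared with those of 130 list genes by the root mean square distance between levels centred on their own mean. The nearest to Aqp2 were Agpat2, an enzyme of glycerolipid synthesis (distance 0.0338 log2), Stx4a, a membrane fusion protein (0.0345), and Prkar2b, a regulatory subunit of protein kinase A (0.0437). MN minus control for Prkar2b was -0.08 by the probe compared here. Its other probes gave 0.28 ± 0.25 and -0.10 ± 0.24 (SE). The nearest to the brighter Avpr2 probe were Slc26a4, the pendrin exchanger of intercalated cells (0.0388), and Scnn1a, an ENaC subunit (0.0479). Next came Car15, a carbonic anhydrase (0.0506). The dimmer Avpr2 probe was not compared and had another profile. From slide 1 to slide 2 it shifted by 0.30 in control and 0.30 in MN, against -0.03 and 0.07 for the brighter.

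Some members are neighbours on a chromosome. On chromosome 15, Aqp2, Aqp5 and Aqp6 follow each other with 0 protein-coding genes between them, as do Aqp7 and Aqp3 on chromosome 4 (RefSeq order, GRCm38.p6). Aqp2 at a log2 difference of -0.09 and Aqp6 at -0.01 were both near 0, with Aqp5 near background between them. Aqp7 and Aqp3 were at -0.21 and -0.38.

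Of the members, 9 had a promoter in the RefSeq table (GRCm38.p6, 300 bases each, 250 before the start site). The 250 bases before the start are shown for Aqp2, the vasopressin target, and for Aqp8, the member with the largest difference. Capitals mark CACGTG, an E-box, and TGACG or its reverse complement CGTCA, a site like the core of a cyclic AMP response element.
Aqp2 promoter: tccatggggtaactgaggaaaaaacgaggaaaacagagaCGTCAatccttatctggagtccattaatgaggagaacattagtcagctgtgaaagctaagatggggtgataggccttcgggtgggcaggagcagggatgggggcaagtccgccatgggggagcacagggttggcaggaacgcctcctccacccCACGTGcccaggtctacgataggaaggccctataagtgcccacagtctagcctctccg
Aqp8 promoter: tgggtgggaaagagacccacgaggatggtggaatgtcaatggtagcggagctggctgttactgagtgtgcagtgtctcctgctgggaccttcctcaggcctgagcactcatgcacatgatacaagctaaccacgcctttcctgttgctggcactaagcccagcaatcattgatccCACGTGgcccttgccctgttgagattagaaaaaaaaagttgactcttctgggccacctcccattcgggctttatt
The Aqp2 stretch is the plus strand of chr15:99578806-99579055 and the Aqp8 stretch that of chr7:123462044-123462293, both on GRCm38.p6. The motifs were chosen after the sequences were read and were searched on both strands of the 300 bases; CACGTG reads the same on both. It was in the promoters of 4 member genes, at -58 in Aqp2, -75 in Aqp8, -87 in Aqp5 and -29 in Aqp6 from the start site, and in 7.15% of all 32851 promoters. TGACG was in that of Aqp2, at -211, and in 20.8% of all. The full TGACGTCA was in 0 of the 9 and in 1.79% of all. AGATAA, which zinc finger factors of the kidney are known to bind, was in those of Aqp2 and Aqp7 and in 11.2% of all, and TATAA in those of Aqp2, Aqp3 and Avpr2 and in 24.9% of all. A match describes letters in this window, and binding was not measured.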

How the data were processed

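Kidney RNA of 2 control and 2 MN samples was measured on 1 array each. The scanner output was deposited as linear spot intensity. Background subtraction, correction of trends across the array and surrogate values for dim spots (6.91% to 20.0% of non-control spots) were done by Agilent Feature Extraction 10.5.1.1, per the file headers, which place the probes on mm9. The value table was deposited as log2 values of unstated making. It equalled log2 intensity scaled to the 75th percentile minus the control mean (column medians 0.03 and -0.03, control; -0.03 and -0.04, MN). In it the replicate numbers of each group are swapped against the scanner files, and which order is right is unknown, so it served as an alternative.

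Control spots and outlier spots (79 to 178 an array) were dropped, log2 signals were scaled to the 75th percentile, and spots were averaged within a probe. A probe was tested if at least 1 group had it well above background on both arrays (36262 of 55681), with limma 3.58.1 in R 4.3.3 (lmFit, eBayes, two-sided, no block, residual df 2, prior df 2.06) and Benjamini-Hochberg adjustment over these probes. List genes were read by their brightest probe. Where a group had a probe well above background on neither array, the other group's mean was set against a bound, the mean over those arrays of the dimmest detected signal or of the probe's own signal if that was higher. The fit was tested on simulated data. Python 3.11.15 was used with numpy 2.4.6, pandas 2.3.3 and matplotlib 3.10.9.

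Replicate number, slide and scan coincide in the file headers, so the numbers pair the arrays; same-numbered arrays deviated together from their group means (correlation 0.70 over 32627 probes). The members and the gene lists were chosen with earlier results of these data known. Genes named are all members, up to 3 genes a list, those furthest from 0 among genes well above background on all arrays, 11 pathway genes chosen by name, and the 3 profiles nearest to Aqp2 and to Avpr2. Not every gene this rule takes is reported here. Lip5 and Amy2b were not matched to a probe. With 4 arrays, their number limits the precision. Protein sequences were not used here.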

Additional observations from a re-analysis of the deposited data

How the results depend on the processing

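No member and no list gene passed the threshold under any of the 14 alternatives (quantile or median scaling, normexp with offset 50, the deposited table, a strict filter or none, 1 probe a gene, a variance trend, the replicate block, the mean over the probes of a gene, and each array left out in turn), nor did a member at an adjusted p under 0.1. Over all probes the count past the threshold was 7, and 21 with normexp, 28 with quantile scaling, 12 with median scaling, 18 with the variance trend, 1 of 23352 genes with the mean over probes, and 0 without a filter, with the strict filter, with the replicate block and with each array left out; at an unadjusted p under 0.05 these last counts were 2565, 2097, 5419 and 1317 to 2206. The smallest adjusted p of a member, 0.214, came with the replicate block, for Aqp8. Of the 13 member probes, 6 kept their sign throughout: with an array left out, Aqp8 ran from -0.84 to -0.68, Aqp3 from -0.49 to -0.27, Aqp7 from -0.37 to -0.05, the dimmer Aqp6 probe from -0.50 to -0.03, and Avpr2 from 0.19 to 0.26 and 0.16 to 0.46. The others changed sign with an array left out: Aqp1 from -0.40 to 0.51, Aqp2 from -0.22 to 0.049, Aqp4 from -0.25 to 0.23 and -0.12 to 0.15, the brighter Aqp6 probe from -0.22 to 0.20, and Aqp11 from -0.042 to 0.15 and -0.086 to 0.17. Median scaling turned the brighter Aqp4 and Aqp6 probes to 0.0038 and 0.0040, the mean over probes turned Aqp4 to 0.0013 and Prkar2b to 0.037, normexp turned the dimmer Aqp4 probe to -0.011, and quantile scaling turned Nfat5 to 0.0035; the cause was not tested. List genes that changed sign with an array left out were Adcy6 (-0.15 to 0.18), Oxtr (-0.46 to 0.22), Agpat2 (-0.20 to 0.083), Stx4a (-0.16 to 0.043), Prkar2b (-0.24 to 0.087), Ndfip2 (-1.31 to 0.35), Oxt (-0.165 to 0.43), Gpd2 (-0.46 to 0.12), Scnn1b (-0.011 to 0.073), Nfat5 (-0.28 to 0.12), Slc12a1 (-0.013 to 0.085) and Umod (-0.051 to 0.19). Differences that kept their sign but moved by over 1.5 times with an array left out were those of Ednrb (-0.62 to -0.27), Slc6a6 (0.24 to 0.56), Mip (-0.75 to -0.24), Rab11fip2 (-0.66 to -0.05), Kit (-0.42 to -0.07), Slc5a2 (0.08 to 0.39) and Slc4a4 (-0.43 to -0.03), and among the members Aqp7 and the dimmer Aqp6 and Avpr2 probes, with the ranges above. Some list genes also shrank with other processing. Among them, normexp took Creb1 to 0.25, Lipe to -0.12 and Slc7a13 to -0.36. The mean over probes took Creb1 to 0.25, Slc14a2 to 0.34 and Snap23 to 0.34. Fits that leave an array out assume that the lone array of a group varies like the others. The dimmer Aqp5 probe on MN array 1 and the dimmer Aqp8 probe on MN array 2 carry surrogate values in place of a measured signal.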
